A study of Capra hircus with 2 samples.

Results

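Lymphoid cells were sought among the cells of fetal goat ovary, the tissue in which germ cells and their supporting cells assemble the first follicles. The study made 1 droplet library (10x Genomics single-cell RNA sequencing) from the ovaries of female goat embryos at each of the stages E85 and E125, named for the embryonic day. No treatment or genetic change was given for either library, and the sources used here do not say how many animals went into each. The tissue labels read ovary and female, whereas the text of the dissociation protocol speaks of testes, and the labels were followed. With 1 library per stage, stage and library cannot be told apart, no test was possible, and every interval below is a 95% interval that covers counting error only.

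A barcode, which stands for 1 droplet and usually 1 cell, was taken as lymphoid when it had at least 500 detected genes, at least 2 of the 4 genes CTSW, LTB, TRDC and IL2RB, and no molecule (unique molecular identifier, UMI) of AIF1, PECAM1, KDR or KRT8, which mark myeloid, endothelial (PECAM1 and KDR) and epithelial cells. The rule took 73 of the 11673 barcodes with at least 500 genes, which was 0.625% (exact binomial interval 0.491 to 0.786). There were 14 among 4028 barcodes at E85, or 0.348% (0.190 to 0.582), and 59 among 7645 at E125, or 0.772% (0.588 to 0.994). The files held 12743 barcodes in all. The share was higher in the E125 library, but whether animals of the same stage differ by as much could not be measured.

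Lymphocytes descend from blood-forming progenitors and include T cells, B cells, natural killer (NK) cells and innate lymphoid cells. T cells carry an antigen receptor, built of alpha and beta or of gamma and delta chains, that signals through the CD3 proteins, and gamma-delta T cells are abundant in ruminants. NK cells and innate lymphoid cells lack that receptor and respond to cytokines and to surface ligands on other cells, and innate lymphoid cells and gamma-delta T cells are known to enter fetal tissues early. Of the rule's genes, CTSW encodes cathepsin W, a protease of cytotoxic lymphocytes, LTB encodes the cytokine lymphotoxin beta, TRDC encodes the constant region of the T cell receptor delta chain, and IL2RB encodes the receptor chain shared by interleukin-2 and interleukin-15.

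The lymphoid barcodes held a median of 4898 UMIs and 1231.5 genes at E85 and 4195 UMIs and 1135 genes at E125, against 3132 UMIs and 1168.5 genes and 3236.5 UMIs and 1286 genes in the other barcodes with at least 500 genes. At E125 they thus had more UMIs but fewer genes at the median. In sum the members gave 75599 UMIs at E85 and 262606 at E125, and levels below are UMIs summed over a group and divided by the group's total, in CPM (UMIs scaled to the same total for each group). The median mitochondrial share was 4.26% and 3.23%, and no member passed 20%. The libraries shared 13 barcode sequences, none of them a member's. Features with no gene symbol took 47.7% and 45.5% of the members' UMIs, and many familiar lymphocyte genes have no symbol here and were not analysed here, among them CD52, TRAC, KLRB1, GZMB, CCL5, IL2RG, ID2, CD79A and MKI67.

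The values that chose the members are a description. At E85, LTB was detected in 14 of 14 members, IL2RB in 11, CTSW in 10 and TRDC in 9. At E125, CTSW was detected in 53 of 59 members, LTB in 45, TRDC in 42 and IL2RB in 39. All 4 genes were seen in 5 members at E85 and 15 at E125, exactly 3 in 6 and 31, and exactly 2 in 3 and 13. The most frequent triple at E125 was CTSW, LTB and TRDC, in 14 barcodes. In the sums, CTSW stood at 2632 CPM at E85 and 2247 at E125, TRDC at 1071 and 1108, and IL2RB at 437 and 548. LTB was at 1733 and 967 CPM.

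Just outside the rule lay barcodes with a single one of the 4 genes and no excluded gene, 67 at E85 and 40 at E125. PTPRC, the CD45 phosphatase found on all leukocytes and not used by the rule, was detected in 13 of 14 and 53 of 59 members. It was detected in 4.48% and 27.5% of the barcodes with 1 rule gene, and in 2.12% and 3.23% of all other barcodes. Barcodes with at least 2 rule genes that an excluded gene kept out numbered 7 and 46, and PTPRC was detected in 71.4% and 84.8% of those. The barcodes with 1 rule gene lay well below the members in this share, and those kept out for an excluded gene lay nearer to the members than to the rest. A further 3 barcodes at E85 and 8 at E125 met the rule in all but the number of genes.

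The label was then held against genes that the rule did not use. The summed level of 15 pan-leukocyte genes was 6257 CPM at E85 and 6603 CPM at E125 in the members, against 240 and 228 CPM in the other barcodes. CORO1A, an actin regulator of leukocytes, was at 1839 and 1599 CPM, and LCP1, the leukocyte actin bundler, was at 926 and 1005 CPM. The list was uneven, with CORO1A giving 139 and 420 and LCP1 70 and 264 of its 473 and 1734 UMIs. Other genes on it were sparse, with CD53 at 1 and 1 UMIs and RAC2 at 2 and 3 outside the member with the most UMIs. All 12 myeloid markers, among them CSF1R, CD68 and the C1Q genes, had 0 UMIs in every member of both libraries, AIF1 by the rule. Leaving out barcodes with an excluded gene can also remove other genes of those cell types, so the zeros are not independent of the rule. With the excluded genes counted, the barcodes so kept out had 648 and 116 CPM of the myeloid list. They had 216 and 245 CPM of the endothelial list. At E125 these sums include droplets of up to 207385 UMIs, against a median of 5208, and the germ cell list stood at 9092 CPM. The E125 sums need not describe the typical barcode so kept out. In barcodes with at least 2 myeloid genes, no rule gene and under 20000 UMIs, 103 at E85 and 82 at E125, the myeloid list stood at 6001 and 11746 CPM. The 15 pan-leukocyte genes summed to 1661 and 5043 CPM there, and PTPRC was detected in 12.6% and 67.1% of those barcodes. At E125 the pan-leukocyte level thus does little to separate lymphoid from myeloid cells. The 8 endothelial markers, PECAM1 and KDR at 0 by the rule, summed to 0 and 2 UMIs, and the erythroid, platelet and glial markers to 0. Not all such lists read 0. Perivascular markers gave 1 and 42 UMIs, epithelial and pregranulosa markers 1 and 16, and germ cell markers 1 and 49. Mast cell markers gave 2 and 21, all from KIT and IL1RL1. TYROBP, the signalling adaptor of myeloid and many NK cells, was at 0 in both libraries. The 14 signalling genes that include it gave only 30 and 21 UMIs in the myeloid comparison barcodes, so this 0 says little.

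**Figure D1:**
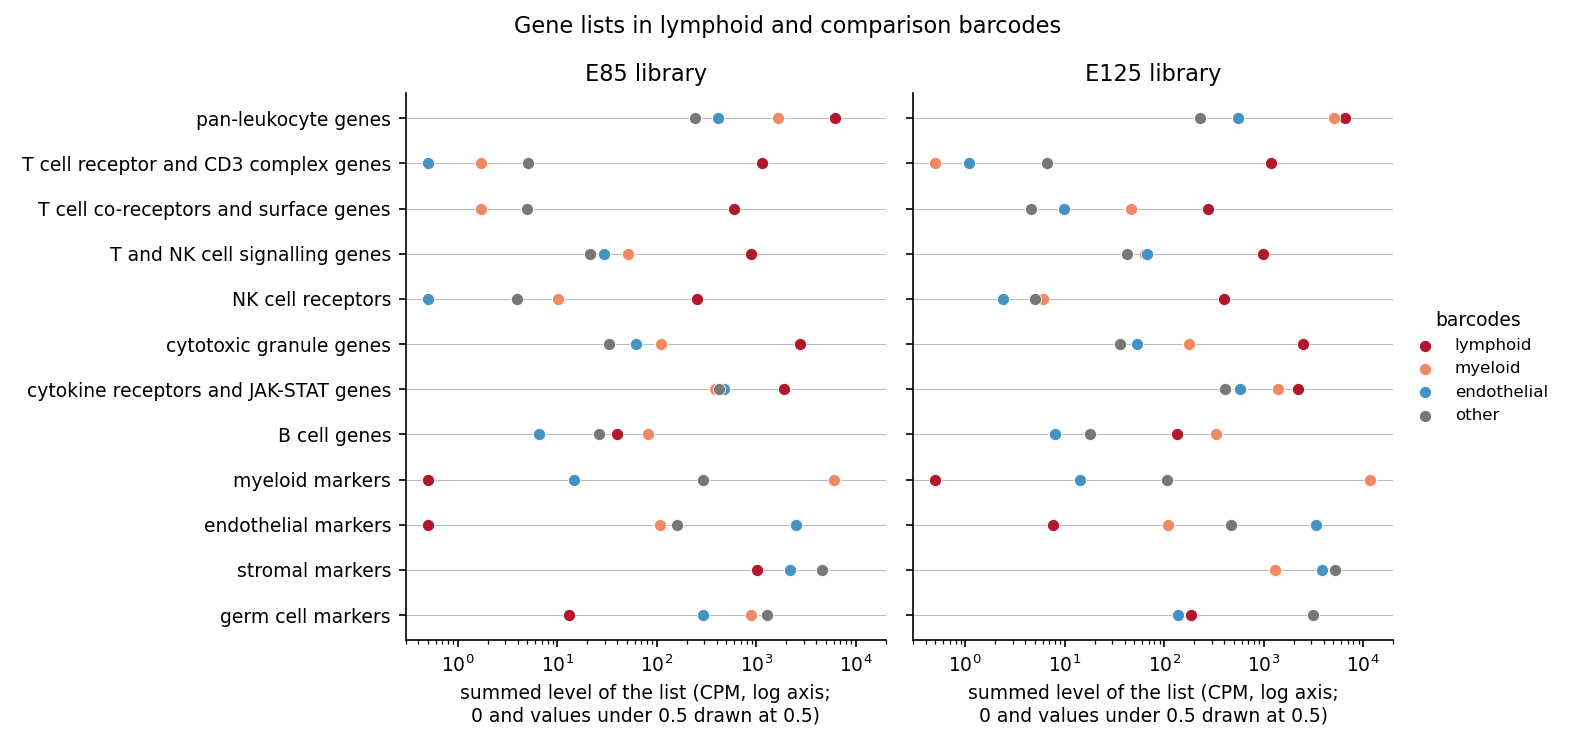
Summed level of 12 gene lists (vertical) in CPM on a log axis (horizontal), at E85 (left) and E125 (right), in lymphoid barcodes (red), myeloid (orange) and endothelial (blue) comparison barcodes and all other barcodes (grey), 1 library each and so without error bars. The lymphoid points lie farthest right for the T cell, NK cell, signalling and cytotoxic lists in both libraries and at 0 for the myeloid markers, while the stromal list reads 1019 and 1314 CPM. The rule gene TRDC gave 81 of 86 and 291 of 311 UMIs of the T cell receptor and CD3 list. The rule gene CTSW gave 199 of 209 and 590 of 654 UMIs of the cytotoxic list. The positions of these lists thus largely follow from the rule and are a description.

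Among the members, 11 barcodes stood apart by stromal RNA. These had between 13 and 71 UMIs of 9 stromal markers such as DCN and COL1A1 (matrix proteins of connective tissue cells), while the other 62 had at most 2. Of the other barcodes in the tissue, 92.7% and 93.6% had 3 or more stromal UMIs, the threshold set for this split after the values were seen. The 11 comprised 1 of 14 members at E85 and 10 of 59 at E125. Their median depth was 5921 UMIs at E125, against 3930 in the remaining E125 members. They held 35 of 38 DCN UMIs at E85 and 92 of 94 at E125, and all 93 UMIs of MGP. Of the 10 at E125, 3 had fewer than 5 pan-leukocyte UMIs, the lowest 0, whereas the median member had 34 at E85 and 27 at E125. These 3 barcodes go against the lymphoid label, and whether the 11 hold 2 cells each was not tested.

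**Figure D2:**
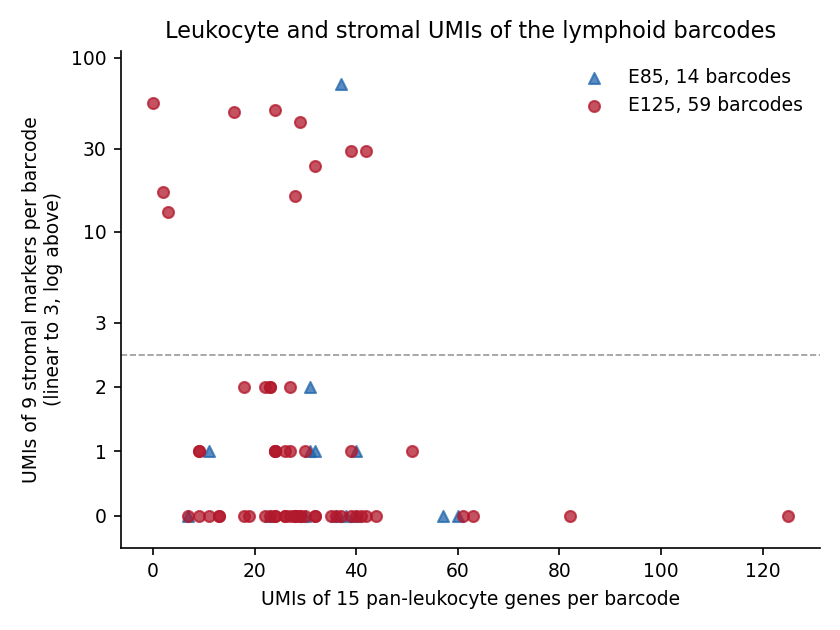
Each point is 1 lymphoid barcode, with its UMIs of 15 pan-leukocyte genes (horizontal) against its UMIs of 9 stromal markers (vertical, linear up to 3 and log above), E85 as triangles (14) and E125 as circles (59), and the dashed line separates 2 from 3 stromal UMIs. The 11 points above the line lie between 13 and 71 stromal UMIs, 3 of them at the left edge with fewer than 5 leukocyte UMIs.

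Against all other barcodes of the same library, 1813 genes had a mean of at least 50 CPM over both groups in both libraries. Of these, 119 (6.56%) passed 2-fold upward in the lymphoid barcodes of both libraries, and 320 (17.7%) passed it downward in both. Per library the higher genes were 12.6% of 2218 at E85 and 8.36% of 2499 at E125, and the lower genes 26.1% and 29.4%. Since the members were chosen by expression, these ratios describe the cells and support nothing. The genes named next ranked highest by the smaller of the ratios in both libraries, beside the rule genes.

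ICOS, a costimulatory receptor of activated T cells and innate lymphoid cells, was 167-fold higher at E85 (81.8 to 332) and 139-fold at E125 (83.8 to 229). BCL11B, a transcription factor of T cell commitment, was 137-fold (53.0 to 335) and 134-fold (92.1 to 194) higher. SH2D1A, the SAP adaptor of T and NK cells, was 122-fold (44.9 to 307) and 175-fold (116 to 264) higher. IL7R, the interleukin-7 receptor chain that lymphocytes need to survive, was 83.3-fold (47.3 to 141) and 127-fold (98.9 to 162) higher. The other barcodes include those with 1 rule gene and those an excluded gene kept out. In barcodes without any rule gene, ICOS was at 0.239 and 0.0222 CPM, against 1.27 and 0.819 in all others, so ratios for ICOS against them would be larger. None of the 4 genes was seen in every member: BCL11B was detected in 6 of 14 and 26 of 59, and IL7R in 8 and 29.

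The next in rank covered adaptors, kinases and adhesion. HCST, the adaptor that signals for NKG2D, was 99.1-fold and 74.8-fold higher, and MATK, a kinase of blood cells, 63.0-fold and 98.8-fold. KLRG1, an inhibitory lectin-like receptor, was 56.3-fold and 38.3-fold higher, and ITGAL, the alpha chain of the integrin LFA-1, was 50.3-fold and 37.9-fold higher. GATA3, a transcription factor of T helper cells and innate lymphoid cells, was 69.6-fold (37.9 to 121) and 34.4-fold (25.9 to 45.0) higher. LCK, the kinase that starts T cell receptor signalling, was 29.8-fold (18.2 to 46.7) and 33.3-fold (25.8 to 42.5) higher. PARVG, FYB1 and TRAF3IP3 completed the named genes. Of the 50 genes that ranked highest, 21 had no symbol.

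Of the antigen receptor genes, TRDC was detected in 51 of the 73 members, yet the 3 CD3 genes together gave only 2 UMIs at E85 and 10 at E125. A CD3 UMI was found in 1 of 14 members at E85, or 7.14% (0.181 to 33.9), and in 9 of 59 at E125, or 15.3% (7.22 to 27.0). In the other barcodes the shares were 0.199% and 0.132%, and in the myeloid comparison barcodes they were 0 of 103, which allows a share of up to 2.91%, and 0 of 82, which allows 3.66%, each as 3 counts of the total (3.52% and 4.40% by the exact interval). When every barcode was thinned to 1000 UMIs, the members' shares were 0 of 14 and 2 of 58. CD247, the zeta chain that T cells and NK cells both use, gave 3 and 10 UMIs, and only 4 of the 7 members with CD3G also had TRDC. At this depth, absence of CD3 in a single barcode does not separate low from no expression. Some pan-leukocyte genes were sparse in the sums too, with CD53 at 1 and 1 UMIs and RAC2 at 2 and 3 outside the member with the most UMIs. How well single features catch their transcripts was not tested.

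Co-receptors and markers of mature T cells were few. CD4 gave 2 and 3 UMIs, CD8A gave 0 and 1, CD5 gave 0 and 4, CD28 gave 1 and 0, and CD2 gave 2 and 7. CD96, an adhesion receptor of T and NK cells, was found in 2 and 16 members, with 3 and 21 UMIs. RAG1, RAG2, DNTT and PTCRA, which act in the rearrangement and early steps of lymphocyte receptor genes, were at 0 in every member. B cell genes summed to 3 and 35 UMIs, of which the adaptor BANK1 gave 3 and 23, and 7 of the 12 measured, PAX5 and CD79B among them, were at 0 in both libraries. MS4A1, which encodes CD20, gave 5 UMIs, all in 1 member at E125, and the list reached 2722 CPM in the highest E125 member, against a median of 0.

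Members carried part of a cytotoxic set. PRF1, the pore-forming perforin, was found in 5 of 14 members at E85 and 16 of 59 at E125, at 79.4 and 80.0 CPM against 0.173 and 0.328 CPM in other barcodes. FASLG, the ligand that triggers death through FAS, was found in 3 and 20 members, at 39.7 and 133 CPM. GZMA, GZMK and CST7 were at 0 in both libraries, and NKG7 gave 0 and 2 UMIs. Of NK cell receptors, NCR3 (NKp30) gave 2 and 15 UMIs and KLRF1 gave 0 and 9, while NCR1 was at 0.

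Of the cytokines listed beside LTB, TNF gave 9 UMIs in 3 members at E85 and 5 UMIs in 4 members at E125, or 119 and 19.0 CPM. IFNG gave 1 and 9 UMIs, and IL22, IL17A, IL13, IL5 and IL4 were at 0 in both libraries. IL26, not on that list, is given with the division of the members. Among homing genes, CXCR3, the chemokine receptor for interferon-induced ligands, was found in 5 and 15 members, and CD69, a marker of activation and tissue residence, in 5 and 9. CCR7, CCR6, CXCR5, CXCR6 and S1PR5 were at 0 in all members. Of the regulators, TBX21 gave 0 and 3 UMIs, EOMES 0 and 0 and FOXP3 0 and 0.

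Between the stages, 669 genes had at least 50 UMIs over the lymphoid barcodes of both libraries. Past 2-fold, 110 of them (16.4%) had the higher level at E125 and 62 (9.27%) the higher level at E85. In the other barcodes, 78 of the same genes (11.7%) were higher and 31 (4.63%) lower, and 57 of the higher and 16 of the lower genes were shared with the lymphoid barcodes. The median log2 ratio of E125 over E85 was 0.06 in lymphoid and 0.07 in other barcodes. Stage and library cannot be told apart for any of these. Genes were counted and ranked with a group sum under 3 UMIs raised to that floor, whereas a printed ratio with 1 or 2 UMIs on a side is that of the counts themselves.

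Of the genes higher at E125, JUN, a stress-responsive transcription factor, gave 2 UMIs at E85 and 232 at E125, or 26.5 and 883 CPM, a ratio of 33.4 (9.14 to 277), or 22.3 with the floor, and it was 5.81-fold higher in other barcodes. STK17A, a kinase of the death-associated family, gave 3 and 147 UMIs, in 3 of 14 and 54 of 59 members, a ratio of 14.1 (4.73 to 69.2), against 3.04 in other barcodes. PABPN1, which binds poly(A) tails, gave 3 and 84 UMIs, a ratio of 8.06 (2.67 to 39.9), against 2.32. NKTR, a cyclophilin-like protein first described on NK cells, was at 52.9 and 305 CPM, a ratio of 5.76 (2.16 to 21.6), against 1.64. WAS, the actin regulator of blood cells, was at 119 and 305 CPM, a ratio of 2.56 (1.28 to 5.80), against 0.733.

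For a second group the other barcodes also differed widely. KLF13 gave 1 and 86 UMIs in lymphoid barcodes, a ratio of 24.8 (4.33 to 989), and was 19.5-fold higher at E125 in other barcodes. TAF10 gave 1 and 68 UMIs, a ratio of 19.6 (3.40 to 784), and was 32.5-fold higher in the others. SMAP1 gave 0 and 70 UMIs, at least 6.72-fold higher against the floor of 3 UMIs, and was 24.0-fold higher in the others. ITM2B gave 2 and 96 UMIs, a ratio of 13.8 (3.72 to 116), beside 8.21-fold in the others. These intervals span the ratios of the other barcodes for KLF13, TAF10 and ITM2B. MGP, AKAP12 and PTN also ranked among the highest, but their UMIs lay in the barcodes with stromal RNA. Without those 11 barcodes MGP gave 0 UMIs at both stages, AKAP12 1 and 2, and PTN 0 and 3, so no ratio was left for them.

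Of the genes lower at E125, SNRPE, a splicing protein, was at 423 and 80.0 CPM, 5.29-fold lower at E125 (2.96 to 9.66), against 2.33-fold in other barcodes. TXN, thioredoxin, was at 754 and 145 CPM, 5.21-fold lower (3.40 to 8.07), against 2.00-fold. HSPA8, a constitutive chaperone, was at 1402 and 320 CPM, 4.38-fold lower (3.26 to 5.91), against 2.25-fold. The chaperonin genes CCT2 and HSPD1 were 3.13-fold (1.95 to 5.01) and 3.04-fold (2.13 to 4.32) lower, against 1.04-fold and 1.22-fold in the others.

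PSMB8 and PSMB9, subunits of the immunoproteasome that cuts peptides for antigen presentation, were both lower at E125 in the lymphoid barcodes. PSMB8 was found in 11 of 14 and 15 of 59 members, and its level went from 503 to 103 CPM, 4.89-fold lower (2.91 to 8.33), against 1.42-fold lower in other barcodes. PSMB9 was at 1204 and 651 CPM, 1.85-fold lower (1.42 to 2.40), where in the other barcodes it was 1.33-fold higher at E125. ID3, a regulator that restrains lymphocyte differentiation, was at 357 and 190 CPM, 1.88-fold lower (1.13 to 3.05), and 2.06-fold higher in other barcodes.

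By list, few lymphocyte genes had the 50 UMIs needed. Of 5 such pan-leukocyte genes, 0 passed 2-fold, with PTPRC at 450 and 834 CPM, a ratio of 1.85 (1.29 to 2.75), against 0.931 in the others. Of 3 signalling genes, SKAP1, a T cell adaptor, passed with 92.6 and 198 CPM, a ratio of 2.14 (0.968 to 5.58), against 6.57 in the others. Without the member with the most UMIs, the ratio of SKAP1 was 1.87 (0.835 to 4.93), under 2-fold. Of 3 homing and adhesion genes, ITGAL (119 and 274 CPM) and the integrin chain ITGA4 (119 and 244 CPM) passed at 2.30 (1.15 to 5.24) and 2.05 (1.01 to 4.68). In the other barcodes ITGAL was 3.06-fold and ITGA4 1.28-fold higher at E125. Of 3 cytokine receptor genes and 3 transcription factors, 0 passed. LTB was 1.79-fold lower at E125 (1.44 to 2.22), beside 1.58-fold in the others, a rule gene and so a description.

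**Figure D3:**
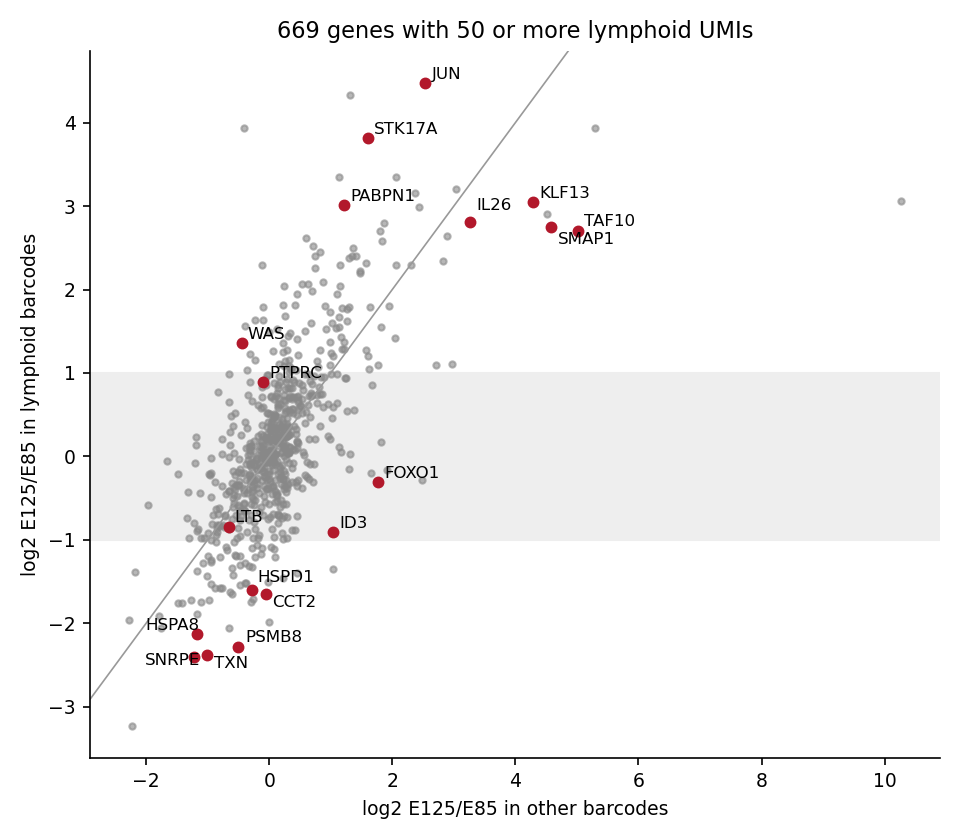
Log2 ratio of E125 over E85 in lymphoid barcodes (vertical) against the same ratio in other barcodes (horizontal) for 669 genes with at least 50 lymphoid UMIs, each a grey point with named genes in red, a group at or under 3 UMIs set to 3. The grey band spans ratios under 2-fold and the line marks equal ratios; STK17A and WAS lie above it, PSMB8, CCT2 and ID3 below it, and TAF10, SMAP1 and KLF13 far to the right.

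Dividing cells were counted next. Members with 5 or more UMIs of 15 division genes, a threshold set after the values were seen, were 4 of 14 at E85, or 28.6% (8.39 to 58.1), and 3 of 59 at E125, or 5.08% (1.06 to 14.1). In the other barcodes the shares were 7.50% and 9.77%. The intervals of the members overlap, and at 1000 UMIs per barcode, with 2 or more division UMIs, the counts were 3 of 14 and 2 of 58. MCM5, a replication helicase subunit, gave 20 and 14 UMIs, or 265 and 53.3 CPM. TOP2A, which untangles DNA before mitosis, gave 8 and 59 UMIs, but 56 of the 59 came from 1 barcode of 14411 UMIs, the largest member. Without that barcode TOP2A gave 8 and 3 UMIs.

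CTLA4, an inhibitory receptor of activated and regulatory T cells, and TNFRSF9, the costimulatory receptor 4-1BB, were looked at after their values were seen. CTLA4 gave 14 UMIs in 2 members at E85 and 1 UMI in 1 member at E125. TNFRSF9 gave 31 UMIs in 3 members at E85 and 1 UMI in 1 at E125. All 3 members with CTLA4 were among the 4 with TNFRSF9, and all 4 had ICOS and GATA3. Of the rule genes, whose detection the choice of members partly fixes, all 4 had LTB and IL2RB and 0 of the 4 had TRDC. FOXP3 was at 0 in all members.

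The members were divided in 3 ways, by CD3, by TRDC and by IL26 against KLRK1, the last of them chosen after the values were seen, as was the division by TRDC. Members with and without a CD3 UMI numbered 10 and 63, and of 669 genes 33 (4.93%) were higher past 2-fold and 45 (6.73%) lower with CD3. TOP2A, CENPF and linker histone genes led the higher genes, and without the largest member 10 genes were higher. DCN and VIM led the lower genes, and without the 11 stromal-RNA members 16 genes were lower. BCL11B was found in 2 of 10 and 30 of 63, at 63.4 and 199 CPM. Members with and without TRDC numbered 51 and 22, and 29 of 665 genes (4.36%) were higher and 14 (2.11%) lower with TRDC. TRDC is a rule gene, so members without it had to carry at least 2 of the others, and this split is a description. CENPF and TOP2A led the higher genes and MGP the lower ones. Counts without the largest or the stromal-RNA members were not made for this split. SH2D1A was at 225 CPM with TRDC and 60.2 CPM without, a ratio of 3.74 (1.69 to 9.77), and MATK was 1.99-fold lower with TRDC (1.31 to 3.02).

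IL26 and KLRK1 were never detected in the same member. IL26 encodes interleukin-26, a cytokine of the interleukin-10 family made by activated T, NK and innate lymphoid cells, and KLRK1 encodes NKG2D, the activating receptor that NK cells and cytotoxic T cells use to sense stressed cells. IL26 gave 0 UMIs at E85 and 73 at E125, where it was detected in 20 of 59 members, or 33.9% (22.1 to 47.4), with at most 11 UMIs in a barcode. At E85 it was detected in 0 of 14 members, which allows a share of up to 21.4% (3 counts of the total, and 23.2% by the exact interval). These exact intervals overlap. In the sums, IL26 was at least 7.01-fold higher at E125 against a floor of 3 UMIs over the group at E85. KLRK1 gave 3 UMIs in 2 of 14 members at E85 and 42 UMIs in 17 of 59 at E125, a ratio of 4.03 (1.29 to 20.3). Of the 73 members, 0 had both genes and 34 had neither. At 1000 UMIs per barcode, 9 E125 members had IL26 and 9 had KLRK1, and thinning cannot add barcodes with both.

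The 20 members with IL26 and the 19 with KLRK1 differed in other genes, with median depths of 4780.5 and 3657 UMIs. Of 335 genes, 14 (4.18%) were higher past 2-fold with IL26 and 20 (5.97%) lower. IL7R was found in 17 of 20 members with IL26 and 4 of 19 with KLRK1, at 768 and 111 CPM, a ratio of 6.94 (3.36 to 16.6). OCIAD2, which encodes an endosomal and mitochondrial protein, was found in 20 of 20 and 10 of 19, at 1407 and 208 CPM, a ratio of 6.77 (3.98 to 12.4). JAK1, the kinase that serves many cytokine receptors, was at 417 CPM with IL26 and 2063 CPM with KLRK1, 4.95-fold lower with IL26 (3.53 to 7.08).

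Detection of further genes also differed between these sets. ICOS was found in 13 of 20 members with IL26 and 1 of 19 with KLRK1, FASLG in 15 and 4, KLRG1 in 10 and 3, and KIT, the stem cell factor receptor, in 6 and 1. PRF1 was found in 3 of 20 and 7 of 19, CD3G in 1 and 4, and KLRF1 in 0 and 3. TRDC was found in 16 of 20 and 12 of 19. LTB was found in 20 of 20 and 10 of 19, at 1259 and 485 CPM, and IL2RB in 6 of 20 and 19 of 19, at 83.3 and 1357 CPM. LTB and IL2RB are rule genes, so a member without one of them had to carry others, and their split is a description. TOP2A and CENPF, also among the highest with IL26, came from the largest member, without which they gave 0 UMIs there, while IL7R stayed at 737 against 111 CPM.

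The rule itself bore on this division, because it removed barcodes with PECAM1. Among all E125 barcodes with at least 2 rule genes and under 20000 UMIs, whether excluded or not, 101 in number, IL26 was found in 44 and KLRK1 in 21, again with 0 holding both. At E85 there were 21 such barcodes and none with IL26, which allows a share of up to 14.3% (3 counts of the total, and 16.1% by the exact interval). At E125 the share was 43.6% (33.7 to 53.8). PECAM1, an adhesion protein of endothelium that some leukocytes also carry, was detected in 24 of the 44 with IL26, or 54.5% (38.8 to 69.6), and in 2 of the 21 with KLRK1, or 9.52% (1.17 to 30.4). Of the 24 barcodes with both IL26 and PECAM1, 0 had a UMI of the other endothelial markers CDH5, TIE1, EGFL7, CLDN5, VWF and ESAM, and 23 had PTPRC. Of the 744 endothelial comparison barcodes at E125, 727 had a UMI of those markers and 14 had PTPRC.

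The barcodes left out for an excluded gene were not part of the division, but they too were chosen for at least 2 rule genes, LTB and IL2RB among them. At E125, 24 of them under 20000 UMIs carried IL26 and 4 carried KLRK1. IL7R was found in 21 of 24 and 0 of 4, at 640 and 0 CPM. LTB was found in 24 of 24 and 1 of 4, OCIAD2 in 24 and 3, and IL2RB in 15 of 24 and 4 of 4. JAK1 was at 510 and 654 CPM there, a smaller difference than among the members. With 4 barcodes on one side, these counts carry little precision. Outside the barcodes with rule genes, IL26 was found in 4 of 7433 barcodes at E125 and KLRK1 in 1.

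**Figure D4:**
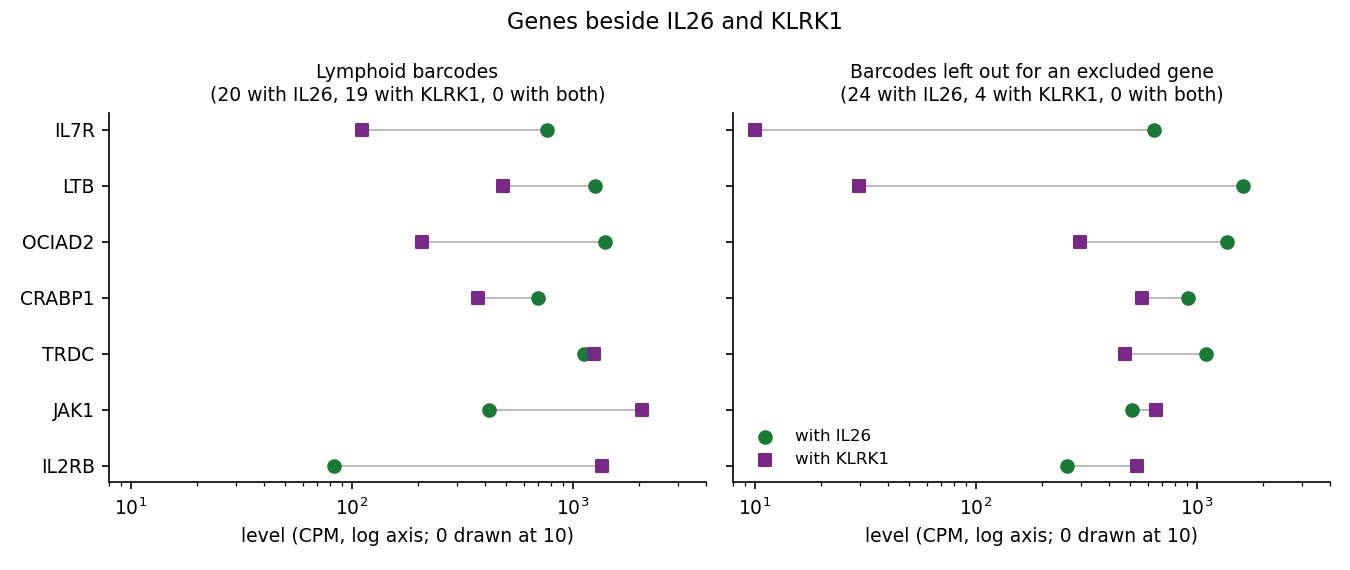
Level in CPM on a log axis (horizontal) of 7 genes (vertical) summed over barcodes with IL26 (green circles) and with KLRK1 (purple squares), in the lymphoid barcodes of both libraries (left) and in barcodes with under 20000 UMIs left out for an excluded gene (right), without error bars. IL7R, LTB and OCIAD2 lie higher with IL26 and IL2RB and JAK1 higher with KLRK1 in both panels, where the right panel has only 4 barcodes with KLRK1.

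CRABP1, which binds retinoic acid inside cells, was looked at after its values were seen. It was found in 3 of 14 members at E85 and 29 of 59 at E125, at 569 and 495 CPM, against 26.8 and 84.3 CPM in the other barcodes and 22.3 and 3.06 CPM in the myeloid comparison barcodes. Germ cell RNA was seen in the members as well, since ZP3, an egg coat gene, gave 33 UMIs in 28 of the 59 at E125 and 0 UMIs at E85. ZP3 stood at 126 CPM in the members and 98.0 CPM in the myeloid comparison barcodes at E125, and at 2107 CPM in the other barcodes.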

How the data were processed

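Single cells of fetal goat ovary were sequenced in 2 droplet libraries, 1 at E85 and 1 at E125. The authors deposited filtered matrices of UMI counts per gene and barcode, made with Cell Ranger, for which the submitters' processing notes give version 3.1 and the matrix headers 6.0.0. No source used here names a genome build or annotation. From the counts, UMIs were summed over groups of barcodes and scaled to CPM, the same total for each group. Ratios have exact conditional Poisson intervals and shares exact Clopper-Pearson intervals, at 95% and for counting error only. A gene counted as higher or lower past 2-fold, with 3 UMIs as a floor for a group sum. A gene entered with a mean of 50 CPM (lymphoid against other) or 50 UMIs (other comparisons).

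The members and the 26 gene lists were chosen with earlier results of these data known. Named genes were the rule genes, list members, the 20 genes highest over other barcodes in both libraries at 100 CPM or more, and the 10 highest and 10 lowest between stages, between stages relative to other barcodes, and by CD3. CTLA4, TNFRSF9, CRABP1, the divisions by TRDC and by IL26 and KLRK1, the thresholds on stromal and division UMIs, the myeloid and endothelial comparison barcodes and their limit of 20000 UMIs were chosen after seeing the data. The myeloid comparison barcodes had at least 2 of 6 myeloid genes, the endothelial ones at least 2 of 5 endothelial genes. No doublets were removed. Ratios were run on simulated group sums drawn from a Poisson model, the model that the intervals assume. That run does not cover UMIs that cluster in single barcodes. Alternatives used Scrublet in scanpy 1.11.5, edgeR 4.0.16 (TMM) and DESeq2 1.42.0 size factors. Columns of single barcodes carry no animal, so no replicate spread exists.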

Additional observations from a re-analysis of the deposited data

Results flagged for a closer look

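At E125, 8 barcodes with fewer than 500 genes met every other condition for a lymphoid barcode. They drew attention as signal in barcodes that the comparisons did not use. They are 8 of the 701 barcodes under 500 genes in that library, and 3 of 369 did so at E85.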

How the results depend on the processing

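No paired analysis was possible because each stage has 1 library and no test was made. Lymphoid and CD3 shares, gene counts, the overlap of IL26 and KLRK1, and genes ranked between stages or over other barcodes were rerun. Of these, ratios past 2-fold with no alternative named here kept their direction, and counts stayed within 1.5 times. This held under a minimum of 1000 genes or none, the mitochondrial limit, TMM and DESeq2 scaling, and, but for CRABP1, the mean over barcodes. Direction was not checked for smaller ratios. Of these settings, only the mean reran counts by CD3. Not rerun were the division by TRDC, the ratios between IL26 and KLRK1 members and the shares of dividing members. Nor were the stage ratios of PSMB9, PTPRC and ITGA4. With at least 3 rule genes, CD3 was found in 0% of E85 members, and 73 genes were higher and 38 lower at E125. With at least 1 rule gene, the lymphoid share was 2.01% and 1.29%, 41 genes were higher and 50 lower than in other barcodes, and 275 higher and 218 lower at E125. With no excluded genes, which lets in 4 droplets of 20000 UMIs or more at E125, that library's share was 1.37%, with 73 higher and 193 lower than in other barcodes and 1125 higher and 149 lower at E125. Thinning to 2000 UMIs dropped shallower barcodes and applied the rule again to the thinned counts, so members and total both differ from the main set. There the E125 share was 1.16% and CD3 was found in 0% and 5.71%. At 0.5 of the minimum level, 188 genes were higher than in other barcodes, and 321 higher and 159 lower at E125. With no minimum level the counts were 6995, 365 and 1561, where the floor of 3 UMIs alone sets most ratios. At 3-fold, 132 genes were lower than in other barcodes, and 63 higher and 22 lower at E125. With 2 or more CD3 UMIs against none, 54 genes were higher and 13 lower, and in the E125 library alone 17 and 29. The last alternatives were added after seeing the data and count the members left out among the other barcodes: without stromal-RNA members 16 genes were lower with CD3, and without the largest member 10 were higher.

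Some single genes reversed between stages. With at least 1 rule gene, the log2 ratio was -1.28 for MGP, -0.48 for PTN and -0.069 for DHRS3, and relative to other barcodes 0.56 for KLF13, 0.46 for SMAP1, 0.11 for TAF10, -0.17 for AKAP12 and -0.078 for PTN. With no excluded genes it was 0.32 for MRPL55 and, relative to other barcodes, 0.059 for TAF10 and 0.036 for CCT2. Without the highest Scrublet scores, AKAP12 was at -0.54, and at -1.10 relative to other barcodes. By the mean over barcodes CRABP1 was at 0.41 relative to other barcodes. For MGP, PTN and AKAP12 no ratio was left without stromal-RNA members under the main settings. The cause of the reversals was not tested. Scrublet's own threshold called 1 barcode in each library, which is no working threshold, so the 130 and 468 highest scores were left out, with 1 and 9 members among them.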
